A study of Mus musculus with 24 samples.

Results

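The receptors by which natural killer cells and related lymphocytes read their surroundings, with their adaptors and ligands, were followed in the terminal ileum after early-life antibiotic exposure. Members were the rows of the expression table whose symbol begins with Klr, Lilr, Raet1 or Slamf, together with Cd160, Cd244, H60a, Hcst, Sh2d1a, Cd48 and Lair1. This gave 26 of the 547 genes. No row began with Raet1, and Ncr1 and Ly9, which were also sought, were not among the rows. The rule used names alone and no measured value.

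All mice were C57BL/6, and tissue was taken at week 7 of life. Control mice (7 mice, 4 male and 3 female) received water without antibiotic. PAT1 mice (pulsed antibiotic treatment, 7 mice, 4 male and 3 female) were exposed once as nursing pups to tylosin, a macrolide, through the milk of the treated dam. PAT3 mice (10 mice, 4 male and 6 female) had that same early course and 2 more after weaning. Whole litters were assigned to a group and mice were housed by sex and group, so litter and cage cannot be told apart from treatment, and the mice were treated as independent in every test. RNA of whole ileal tissue was measured with the NanoString nCounter mouse immunology panel, in which colour-coded probes are hybridized to RNA and counted one by one.

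A natural killer cell weighs signals from inhibitory receptors, most of which bind major histocompatibility complex (MHC) class I molecules, against signals from activating receptors that bind stress-induced or viral ligands. In the gut the same receptors are also carried by intraepithelial T cells and innate lymphocytes, and the Lilr receptors mainly by myeloid and B cells. In whole tissue, fewer cells of a type and less RNA per cell cannot be told apart.

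Each member was recorded in every mouse, and none was listed at 0. The signal nevertheless divided them evenly. The median count per mouse was at least 20 for 13 members and lower for the other 13, named low members below. Totals over the panel ranged from 171671 to 782392 counts per mouse, and the shallowest were PAT1 replicate 1 and PAT3 replicate 7 (265500 counts). Replicate numbers follow the order of the samples only. Counting error alone, taken as 1 over the square root of the median count, was 7.44% for Slamf7 and 44.7% for Klra21. Values are given as log2 normalized counts unless stated, and counts are molecules before normalization.

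Of the members, 21 carried a current symbol and 3 an older synonym in the RefSeq gene table of mouse assembly GRCm38.p6 (Cd244 as Cd244a, Lilrb3 as Pirb and Lilrb4 as Lilrb4a), whereas H60a and Klra21 were not matched. Members clustered in the genome, with 12 on chromosome 6, 5 on chromosome 7 and 4 on chromosome 1. The chromosome 6 members form the natural killer gene complex, in which Klrd1, Klrk1, Klrc3, Klrc2 and Klrc1 lie within 94.76 kb (chr6:129588092-129682852). Promoters of this stretch are shown because Klrk1 was lower in PAT3 and its neighbours Klrc1, Klrc2 and Klrc3 were not called, and because Klrc2 and Klrc3 are close copies. The Klrk1 call held in 21 of 35 alternative analyses, and the difference between Klrk1 and these neighbours was not tested. The 150 bases before an annotated start of each gene (RefSeq, GRCm38.p6, minus strand) are written 5′ to 3′, and capitals mark the Runx motif TGTGGT, or its reverse complement ACCACA.
Klrk1, chr6:129623865-129624014: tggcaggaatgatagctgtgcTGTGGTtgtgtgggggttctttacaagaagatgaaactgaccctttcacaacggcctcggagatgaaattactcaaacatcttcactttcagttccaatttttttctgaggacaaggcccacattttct
Klrc3, chr6:129643289-129643438: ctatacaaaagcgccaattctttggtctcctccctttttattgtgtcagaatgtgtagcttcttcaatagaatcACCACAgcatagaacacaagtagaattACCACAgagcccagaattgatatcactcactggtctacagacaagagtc
Klrc2, chr6:129660557-129660706: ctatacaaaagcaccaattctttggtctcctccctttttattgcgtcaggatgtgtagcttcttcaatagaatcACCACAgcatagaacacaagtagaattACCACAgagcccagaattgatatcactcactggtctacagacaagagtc
Klrc1, chr6:129678974-129679123: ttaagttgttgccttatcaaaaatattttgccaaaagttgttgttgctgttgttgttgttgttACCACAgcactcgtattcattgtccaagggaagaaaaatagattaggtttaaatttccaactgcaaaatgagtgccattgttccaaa

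Over windows of 300 bases (250 before to 50 after the start, both strands searched), Klrc2 and Klrc3 were 98.34% identical, whereas Klrc1 was 51.43% identical to Klrc2. The motif was found in 8 of the 21 members with a promoter entry, a match in any of their 25 windows being counted. It was found in 16.76% of all 32851 promoter windows of the assembly. The first share is per gene and the second per window, and Klrc2 and Klrc3 count separately, so the shares are not alike. Klrd1 is one of the members without an entry. Among members lower in PAT3 the motif was found in 2 of 6 with an entry, and among the rest in 6 of 15. The probes of the panel could share RNA of close copies such as Klrc2 and Klrc3, or members of the Klra family, so their separate values are uncertain.

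To determine whether one or several courses altered these genes, each PAT group was compared with Control by limma over all 547 genes, with p-values adjusted by the Benjamini-Hochberg method. A gene is called when its adjusted p is under 0.05. In PAT1, 1 of the 26 members was lower (Klrd1) and none was higher, and 5 had an unadjusted p under 0.05. Of all genes, 11.2% were called lower and 7.31% higher in PAT1. In PAT3, 8 members were lower (Klrd1, Klrb1, Slamf7, Klra7, Sh2d1a, Klra6, Cd48 and Klrk1) and none was higher, with 11 at an unadjusted p under 0.05. Of all genes, 17.9% were called lower and 13.9% higher in PAT3. The median log2 fold change of the members was -0.07 in PAT1 and -0.32 in PAT3, beside 0.01 and 0.03 over all genes. Both comparisons use the same Control mice.

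**Figure D1:**
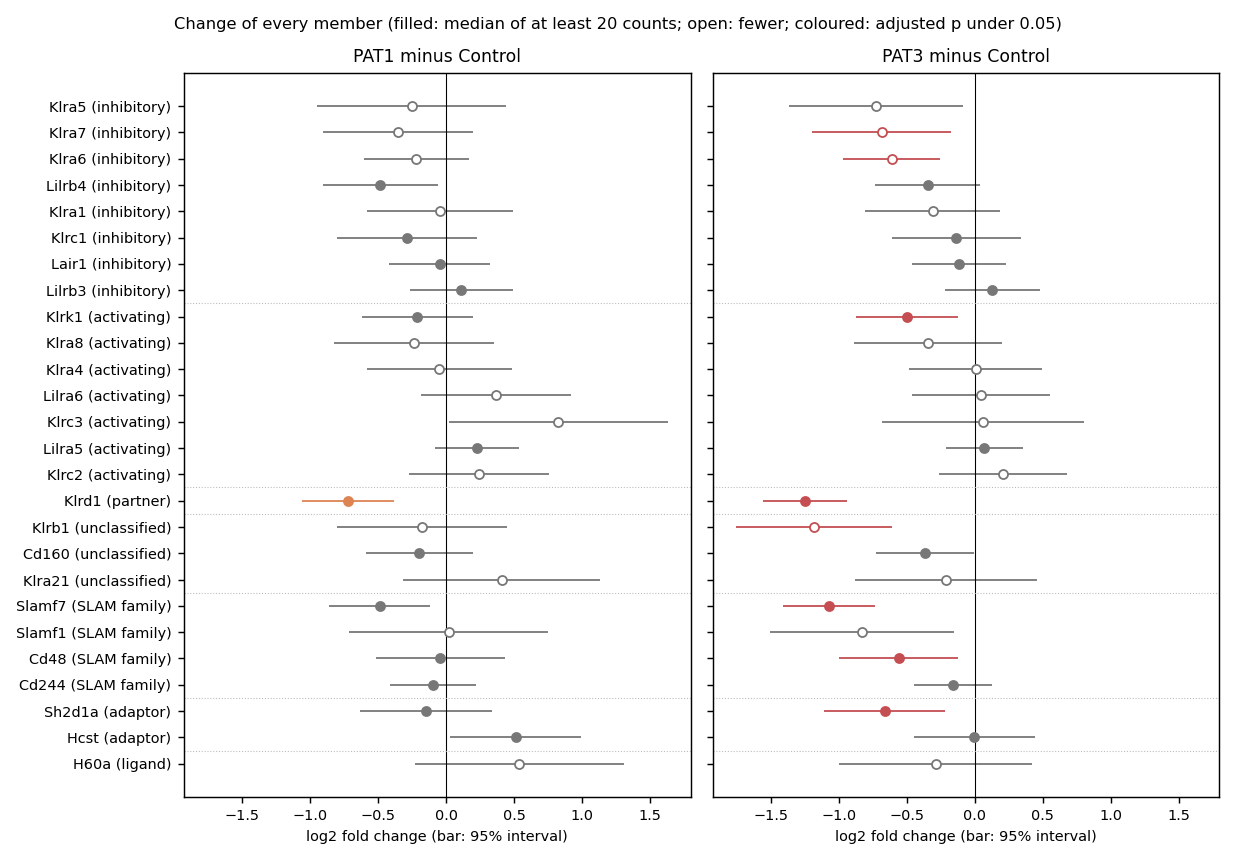
Log2 fold change against Control, with its 95% interval, of the 26 members grouped by role (PAT1 left, PAT3 right). Filled points are the 13 members with a median of at least 20 counts, and colour marks an adjusted p under 0.05. A single member is coloured in PAT1 and 8 in PAT3, all of them on the negative side. Of these, 1 and 3 remain past the threshold after each mouse is re-centred on its median.

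Scaling mattered for these counts. The median log2 value over the panel was itself lower than in Control, by a shift of -0.14 in PAT1 and -0.19 in PAT3. When each mouse was re-centred on its median, 3 members were called in PAT3 (Klrb1, Klrd1 and Slamf7), and the median change of the members became 0.07 in PAT1 and -0.13 in PAT3. Under the same scaling 78 of the 547 genes were called lower and 152 higher in PAT3, and the median over all genes was 0.15 in PAT1 and 0.22 in PAT3.

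Klrd1 was the member with the clearest difference. It encodes CD94, the chain that pairs with the Klrc products to form receptors for the MHC class I-like molecule Qa-1. The lowest, median and highest Klrd1 values were 6.85, 6.96 and 7.43 in Control, 5.90, 6.44 and 6.57 in PAT1, and 5.35, 5.78 and 6.26 in PAT3. Every Control mouse lay above every PAT mouse of either group. Means were 7.07 ± 0.22 (SD, n = 7), 6.35 ± 0.25 (SD, n = 7) and 5.82 ± 0.35 (SD, n = 10). Klrd1 fell by 0.72 in PAT1 (log2, SE 0.16, limma adjusted p = 0.00281), a level 1.65-fold lower, and was lower than the Control mean in 7 of 7 mice. It fell by 1.25 in PAT3 (SE 0.15, limma adjusted p = 6.32e-07), a level 2.37-fold lower, in 10 of 10 mice. Such a lack of overlap on the lower side was seen for 1 member in PAT1 and 2 in PAT3, against 3.84% and 7.31% of all genes. The call in PAT3 held in all 35 alternatives and that in PAT1 in 34, the exception being female mice alone (log2 fold change -0.76, limma adjusted p = 0.111).

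**Figure D2:**
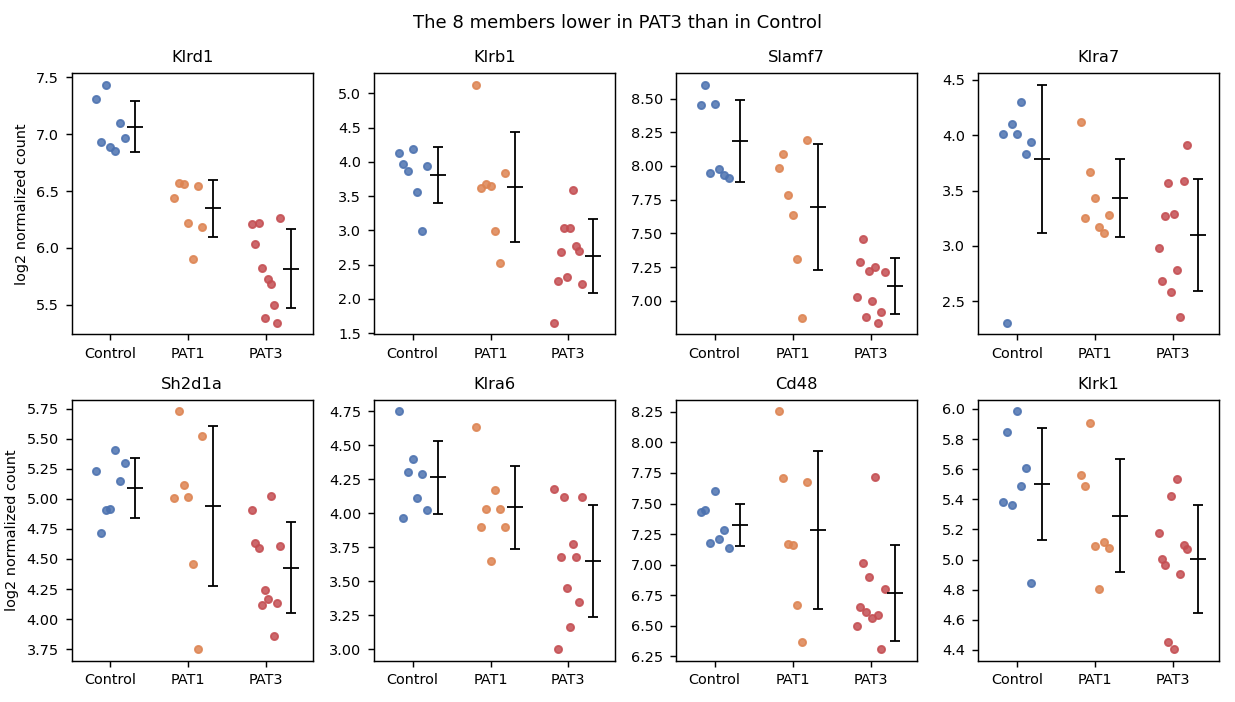
Log2 normalized counts of the 8 members lower in PAT3 than in Control, 1 point per mouse (7 Control, 7 PAT1 and 10 PAT3), with the mean and SD beside each group. In Klrd1 all Control mice lie above all PAT mice, in Slamf7 above all PAT3 mice, and in the other 6 panels the groups overlap. After re-centring on the median, Klra7, Sh2d1a, Klra6, Cd48 and Klrk1 stay lower in PAT3 but miss the threshold.

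The Klrc products are the partners of CD94. Klrc1 encodes NKG2A, whose tail is inhibitory, whereas Klrc2 and Klrc3 encode activating forms that signal through an adaptor. Klrc1 ranged from 3.75 to 4.95 in Control, from 3.61 to 5.63 in PAT1 and from 3.88 to 4.97 in PAT3. The 3 groups overlapped almost wholly. Klrc1 had 9 to 39 counts per mouse and a median of 20, the least that kept it from the low members. Its counting error was 22.4%, so depth limits this result too. Its log2 fold change was -0.29 in PAT1 (SE 0.25, limma adjusted p = 0.469) and -0.14 in PAT3 (SE 0.23, limma adjusted p = 0.661, 95% interval -0.61 to 0.34), and the latter took a positive sign after re-centring (0.05). Klrc2 and Klrc3 are low members, with 7 to 22 and 1 to 9 counts per mouse, and neither was called. Klrc3 had the highest positive change of the members in PAT1 (log2 fold change 0.82, SE 0.39, limma adjusted p = 0.159) and gave 0.06 in PAT3. The difference Klrc1 minus Klrc2 within a mouse, a measure of inhibitory against activating partner, was 0.95 ± 0.79 for Control (SD, n = 7), 0.42 ± 0.81 for PAT1 (SD, n = 7) and 0.60 ± 0.63 for PAT3 (SD, n = 10). These ranges overlapped in all groups. Klrd1 minus Klrc1, a pair chosen after the values were seen, was 2.58 ± 0.38 for Control (SD, n = 7), 2.15 ± 0.68 for PAT1 (SD, n = 7) and 1.47 ± 0.45 for PAT3 (SD, n = 10). Klrd1 was lower in PAT3 and Klrc1 was not called, and the difference between these changes was not tested.

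Klrk1 encodes NKG2D, an activating receptor for stress-induced ligands, and Hcst encodes DAP10, an adaptor through which NKG2D signals. Klrk1 had a lowest, median and highest value of 4.85, 5.49 and 5.98 in Control, 4.81, 5.11 and 5.91 in PAT1, and 4.41, 5.04 and 5.53 in PAT3. It was lower than the Control mean in 9 of 10 PAT3 mice, although the groups overlapped. The log2 fold change was -0.21 in PAT1 (SE 0.20, limma adjusted p = 0.508) and -0.50 in PAT3 (SE 0.18, limma adjusted p = 0.0376). The PAT3 call held in 21 of 35 alternatives and was lost with sex as a covariate (limma adjusted p = 0.0518) and after re-centring (log2 fold change -0.31, limma adjusted p = 0.183). Hcst averaged 4.91 ± 0.25 for Control (SD, n = 7), 5.42 ± 0.55 for PAT1 (SD, n = 7) and 4.90 ± 0.48 for PAT3 (SD, n = 10). The Hcst values of the groups overlapped, and the Hcst difference was 0.51 in PAT1 (SE 0.23, limma adjusted p = 0.148) and -0.00311 in PAT3 (SE 0.22, limma adjusted p = 0.992). H60a, a ligand of NKG2D known for its expression in BALB/c and not in C57BL/6 mice, had 2 to 14 counts per mouse. Klra21 had 2 to 10.

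These 2 members gave a view of low counts, though they were not the lowest genes of the panel. By mean log2 value Klra21 ranked 541 and H60a 524 of the 547 genes, and 19 values of the panel were listed at 0. Klra4 and Klrc3 were at or below the higher of H60a and Klra21 in 20 of 24 mice each, Klra1 in 12, and Klra7 and Klrb1 in 9. No member with a median of at least 20 counts reached that level in any mouse. Whether background was subtracted before deposit was not given in the sources used here, and the part of background in the values of the low members was not tested.

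**Figure D3:**
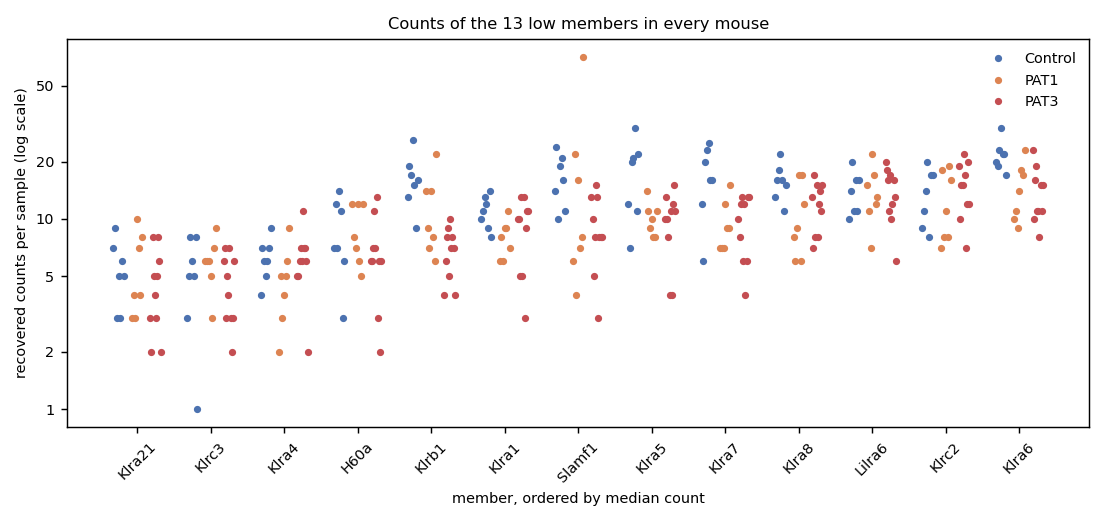
Counts per mouse, on a log scale, of the 13 low members, ordered by their median count, with 1 point per mouse and colour for the group. Klra21, Klrc3, Klra4 and H60a lie mostly under 10 counts, and the PAT3 counts of Klrb1 (4 to 10) reach down to the same level.

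Klrb1 is a C-type lectin receptor of the NKR-P1 family. Control mice had 9 to 26 counts of Klrb1, PAT1 mice 6 to 22 and PAT3 mice 4 to 10. In log2 normalized counts the means were 3.81 ± 0.41 (SD, n = 7), 3.63 ± 0.80 (SD, n = 7) and 2.63 ± 0.54 (SD, n = 10). All 10 PAT3 mice lay below the Control mean, although the lowest Control mouse was within the PAT3 range. Klrb1 fell by 1.18 in PAT3 (SE 0.28, limma adjusted p = 0.00213), and its difference was -0.18 in PAT1 (SE 0.30, limma adjusted p = 0.739). The PAT3 call held in 33 of 34 alternatives, all but female mice alone (limma adjusted p = 0.209).

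The Klra genes encode the Ly49 receptors, the mouse counterparts of human KIR, most of which bind classical MHC class I. All 6 assigned to a role here were low members. The inhibitory Klra6 had 17 to 30 counts in Control, 9 to 23 in PAT1 and 8 to 23 in PAT3. Its mean was 4.26 ± 0.27 for Control (SD, n = 7), 4.05 ± 0.30 for PAT1 (SD, n = 7) and 3.65 ± 0.41 for PAT3 (SD, n = 10). Klra6 fell by 0.61 in PAT3 (SE 0.17, limma adjusted p = 0.00774), with 10 of 10 mice below the Control mean and the highest PAT3 mice within the Control range. The inhibitory Klra7 averaged 3.79 ± 0.67 for Control (SD, n = 7), 3.43 ± 0.35 for PAT1 (SD, n = 7) and 3.10 ± 0.51 for PAT3 (SD, n = 10), where it fell by 0.69 (SE 0.25, limma adjusted p = 0.0363). Control replicate 2 lay far below the other Control mice in Klra7. Neither call held after re-centring (limma adjusted p = 0.0707 for Klra6 and 0.138 for Klra7), and that of Klra7 held in 19 of 34 alternatives. The inhibitory Klra5 and Klra1 gave -0.72 and -0.31 in PAT3 and the activating Klra8 and Klra4 gave -0.34 and 0.01, none of them called. Klra7 minus Klra8 within a mouse was -0.01 ± 0.68 for Control (SD, n = 7), -0.12 ± 0.53 for PAT1 (SD, n = 7) and -0.35 ± 0.81 for PAT3 (SD, n = 10), so these differences were smaller than the spread between mice.

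In their order along chromosome 6, from Klrb1 to Klra1 over 1.681 Mb, members that were lower in PAT3 stood beside members that were not called. Klrd1 and Klrk1 were followed by Klrc3, Klrc2 and Klrc1, with log2 fold changes of 0.06, 0.21 and -0.14 in PAT3. Further along, Klra4 and Klra8 lay between Klra6 and Klra7. Klra5, just before Klra6, was not called at -0.72 in PAT3, beside -0.61 for Klra6 and -0.69 for Klra7, which were called. Differences between neighbouring members were not tested.

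**Figure D4:**
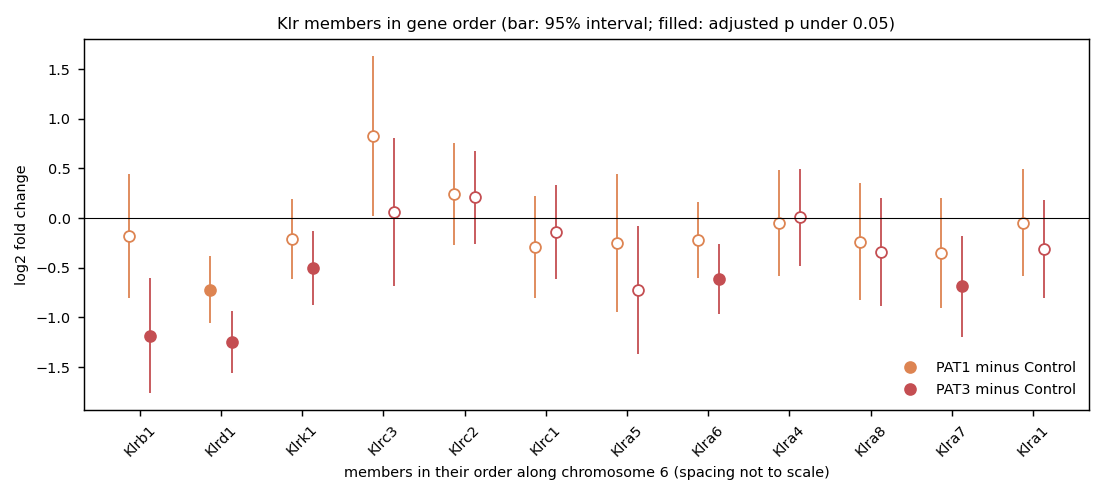
Log2 fold change against Control with its 95% interval for the 12 members of chromosome 6, in gene order and not to scale (PAT1 and PAT3 side by side). Filled points passed the threshold. Klrb1, Klrd1, Klrk1, Klra6 and Klra7 are filled in PAT3, and the run from Klrc3 to Klrc1 lies between -0.14 and 0.21 in PAT3 and between -0.29 and 0.82 in PAT1, with no call; Klrk1, Klra6 and Klra7 lose their call after re-centring.

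The Lilr receptors and Lair1 are carried largely by myeloid cells, and Lair1 binds collagen. None of these 5 members was called in either group. Lilrb4, an inhibitory receptor, had a lowest, median and highest value of 6.28, 6.67 and 7.63 in Control, 5.99, 6.40 and 6.59 in PAT1, and 5.78, 6.50 and 7.12 in PAT3. Its log2 fold change was -0.48 in PAT1 (SE 0.20, limma adjusted p = 0.108), with 7 of 7 mice below the Control mean, and -0.35 in PAT3 (SE 0.19, limma adjusted p = 0.163). The other 4 (Lilrb3, Lilra5, Lilra6 and Lair1) gave between -0.05 and 0.37 in PAT1 and between -0.12 and 0.13 in PAT3.

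Set side by side, the inhibitory receptors (8 members) had a median change (log2) of -0.24 in PAT1 and -0.33 in PAT3, with 7 of 8 negative in each, and the activating receptors (7 members) one of 0.22 and 0.05, with 3 and 2 of 7 negative. Of the inhibitory receptors 2 were called lower in PAT3 (Klra6 and Klra7, 25%), and of the activating receptors 1 (Klrk1, 14.3%). The share of all genes called lower in PAT3, 17.9%, lies between these shares. After re-centring, and likewise after quantile normalization, 0 receptors of either class were called in PAT3. Re-centring moved both classes, to -0.09 and -0.14 for inhibitory and 0.37 and 0.24 for activating receptors. With the size factor of each mouse as a covariate, the median of the activating receptors in PAT3 took the other sign (-0.00889), as it did without the 2 shallowest mice (-0.03). Among members with at least 20 counts only 4 inhibitory and 2 activating receptors remained, with medians in PAT3 of -0.13 and -0.21, so the order of the classes was then the opposite. Genes of the panel under 20 counts (121 genes) had medians of 0.08 in PAT1 and -0.06 in PAT3.

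The SLAM family comprises receptors that mostly bind their own kind on a neighbouring cell. Slamf7, also carried by plasma cells, had a lowest, median and highest value of 7.91, 7.98 and 8.60 in Control, 6.88, 7.78 and 8.20 in PAT1, and 6.84, 7.12 and 7.46 in PAT3. All 10 PAT3 mice lay below all Control mice, whereas PAT1 mice overlapped both groups. Slamf7 fell by 1.07 in PAT3 (SE 0.17, limma adjusted p = 2.08e-05), a level 2.10-fold lower, and this call held in all 35 alternatives. In PAT1 the difference was -0.49 (SE 0.18, limma adjusted p = 0.0564), which missed the threshold, and Slamf7 was called there without PAT1 replicate 1, 2 or 7 or Control replicate 7.

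Cd48, a broadly expressed SLAM member, is the ligand of Cd244. Cd48 ranged from 7.14 to 7.61 in Control, from 6.37 to 8.25 in PAT1 and from 6.31 to 7.72 in PAT3. In PAT3, 9 of 10 mice lay below the Control mean and replicate 7 above it. Its log2 fold change was -0.04 in PAT1 (SE 0.23, limma adjusted p = 0.937) and -0.56 in PAT3 (SE 0.21, limma adjusted p = 0.0448), a call that held in 16 of 35 alternatives. Its receptor Cd244 averaged 7.28 ± 0.26 for Control (SD, n = 7), 7.19 ± 0.19 for PAT1 (SD, n = 7) and 7.12 ± 0.31 for PAT3 (SD, n = 10). Cd244 was not called in PAT3 (log2 fold change -0.16, SE 0.14, limma adjusted p = 0.403), and its sign turned after re-centring (0.03). Slamf1, a low member, gave -0.83 in PAT3 (SE 0.33, limma adjusted p = 0.0547). Over the 4 members of the family the median change (log2) was -0.07 in PAT1, which became 0.08 after re-centring, and of -0.70 in PAT3, which became -0.50.

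Sh2d1a encodes SAP, the adaptor that links SLAM receptors to Fyn. It ranged from 4.72 to 5.41 in Control, from 3.75 to 5.73 in PAT1 and from 3.86 to 5.03 in PAT3. PAT1 mice spread to both sides of the Control range, and all 10 PAT3 mice lay below the Control mean. Sh2d1a fell by 0.66 in PAT3 (SE 0.22, limma adjusted p = 0.0217) and gave -0.15 in PAT1 (SE 0.24, limma adjusted p = 0.715). The PAT3 call held in 30 of 35 alternatives, and re-centring was one of the exceptions (log2 fold change -0.47, limma adjusted p = 0.0659). Cd160, a receptor of intraepithelial lymphocytes and natural killer cells, gave -0.37 in PAT3 (SE 0.17, limma adjusted p = 0.111), with 9 of 10 mice below the Control mean.

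Next, PAT3 was compared with PAT1 directly. In PAT3, 3 members were lower and none was higher, and 10 had an unadjusted p under 0.05. Of all genes, 2.74% were called lower and 1.46% higher. The 3 were Klrb1 (log2 fold change -1.01, SE 0.28, limma adjusted p = 0.0401), Slamf7 (-0.58, SE 0.17, limma adjusted p = 0.0401) and Klrd1 (-0.53, SE 0.15, limma adjusted p = 0.0419). All 10 PAT3 mice lay below the PAT1 mean in each, but the groups overlapped. All 3 stood close to the threshold, and none was called without PAT1 replicate 1, 2, 3, 4 or 7 or without PAT3 replicate 1, 2, 3, 4, 5, 6, 8 or 9, nor by the methods' test. Without PAT1 replicate 6 the count was 6 (with Cd48, Sh2d1a and Slamf1), and without PAT3 replicate 7 it was 5 (with Cd48 and Hcst). Over all genes the same fits called 86 and 102, against 23 with every mouse. A legend of the study gives the PAT groups other sizes than the labels, which were followed here, so the group of at least 1 PAT mouse is uncertain. A moderated F-test over the 3 groups called 5 members (Klrd1, Slamf7, Klrb1, Klra6 and Sh2d1a), beside 34.6% of all genes, with adjusted p from 3.46e-06 for Klrd1 to 0.0368 for Sh2d1a.

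No member was called between the sexes in a limma fit with treatment and sex (5 at an unadjusted p under 0.05, smallest adjusted p = 0.308, 0.366% of all genes called). The antibiotic effect was not called as different between the sexes for any member either (2 at an unadjusted p under 0.05, smallest adjusted p = 0.168, for Hcst, 0.183% of all genes called). Female mice had a lower Klrd1 mean than males (difference -0.29, SE 0.11, limma adjusted p = 0.308), and the PAT3 group held more females. Among males, Klrd1 was 6.88 to 7.43 in Control and 5.82 to 6.22 in PAT3.

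Markers of the cell types that the tissue could hold were measured beside the members. Of 5 markers written for natural killer cells only Klrd1 and Eomes were among the rows, so the cell type rests on few genes here. Klrd1 is itself a member, with 30 to 201 counts per mouse against 4 to 16 for Eomes. Their summed normalized count therefore mostly restates the Klrd1 result and is no separate measure of the cell type. The sum was 122 to 180 in Control, 65.9 to 114 in PAT1 and 45.3 to 89.4 in PAT3. Eomes was not called (log2 fold change -0.45 in PAT3, limma adjusted p = 0.268). Of 6 T cell markers, PAT1 had 2 lower and PAT3 had 5 lower, and their summed normalized count was 577 to 730 in Control, 362 to 594 in PAT1 and 215 to 431 in PAT3. In PAT3 the log2 fold changes were -1.84 for Cd8a, -1.38 for Cd3e, -1.27 for Cd3d, -0.84 for Cd247 and -0.39 for Cd4, each called, and -0.73 for Cd8b1, not called. Of 5 B cell markers, none was called in PAT1, where their median change (log2) was 0.71, and 1 was lower in PAT3 (Cd79b), and their summed normalized count was 189 to 726 in Control, 104 to 3967 in PAT1 and 96.0 to 281 in PAT3. Of 4 myeloid markers, Itgam was lower in each PAT group, and their summed normalized count was 1330 to 1951, 1080 to 1347 and 1213 to 1557 in the same order. Of 5 enterocyte markers, 1 was lower in each PAT group (Ceacam1). The 2 that were higher were Ccl25 and Btnl1 in PAT1, and Ccl25 and Abcb1a in PAT3. The summed normalized count of the 5 was 36584 to 69874, 30843 to 69680 and 22599 to 69171 in the same order. None of the markers was at 0 counts in any mouse. The part of any of these cell types in the results was not tested.

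Within groups, the 13 members with at least 20 counts were related to the mean of the B cell and of the T cell markers. Of 78 relations, 1 passed after adjustment by both measures, namely Lilrb3 with the B cell mean in PAT3 (Pearson r = 0.888, permutation p = 0.00021, adjusted p = 0.0164; Spearman rho = 0.939, permutation p = 0.00028, adjusted p = 0.0218, n = 10). Without PAT3 replicates 4 and 7, r was 0.817. The same pair gave r = -0.372 and rho = -0.0714 in Control, and r = 0.129 and rho = 0.321 in PAT1, neither passing after adjustment. Klrd1 and the T cell mean in Control gave r = 0.871 (exact permutation p = 0.00952, adjusted p = 0.186, n = 7) and rho = 0.857 (exact permutation p = 0.0238, adjusted p = 0.265), and r = 0.955 without Control replicates 2 and 4. In PAT1 the same relation gave r = 0.155 (exact permutation p = 0.737, adjusted p = 0.941, n = 7) and rho = 0.143 (exact permutation p = 0.783, adjusted p = 0.911), and r = 0.319 without PAT1 replicates 2 and 7. In PAT3 it gave r = 0.330 (permutation p = 0.349, adjusted p = 0.802, n = 10) and rho = 0.370 (permutation p = 0.294, adjusted p = 0.655), and r = 0.157 without PAT3 replicates 7 and 10. Klrk1 and the T cell mean went the other way in Control, with r = -0.671 (exact permutation p = 0.0885, adjusted p = 0.528) and rho = -0.857 (exact permutation p = 0.0238, adjusted p = 0.265). Without Control replicates 2 and 4, that r was -0.101. Neither the Klrd1 nor the Klrk1 relation passed after adjustment.

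Other genes of natural killer recognition and function were taken from a written list of 69, of which 54 were among the rows. In PAT1, 10 of these were lower and 3 higher, where 11.2% of all genes were called lower and 7.31% higher. In PAT3, 22 were lower and 5 higher, where 17.9% of all genes were called lower and 13.9% higher. The median change (log2) of the list in PAT3 was -0.35, beside 0.03 over all genes. The 5 higher in PAT3 were Il15, H2-Q10 (log2 fold change 0.84), Ncam1 (0.81), Cd59b (0.57) and Il18r1 (0.54). Most genes named next were chosen for the smallest adjusted p in PAT3 and are not typical of the list. The shared adaptor Tyrobp (DAP12), through which activating Klra and Klrc products signal, gave 0.08 in PAT3 (SE 0.22, limma adjusted p = 0.788). Il2rb, a receptor chain for interleukin-15, fell by 0.53 in PAT1 and by 1.06 in PAT3 (SE 0.14, limma adjusted p = 2.57e-06), while its ligand gene Il15 was higher by 1.21 and 0.96 (limma adjusted p = 0.000534 and 0.00127). Tigit, an inhibitory receptor of the same cells, fell by 1.09 in PAT1 (limma adjusted p = 0.000540) and by 1.52 in PAT3 (limma adjusted p = 1.28e-06). Cd7, a surface antigen of T and natural killer cells, fell by 1.80 in PAT3 (limma adjusted p = 7.00e-07). Runx3, a transcription factor of cytotoxic lymphocytes, fell by 1.04 in PAT3 (limma adjusted p = 2.25e-05) and the kinase gene Lck by 1.09 (limma adjusted p = 1.46e-05). In PAT1 Lck was not called (log2 fold change -0.38, limma adjusted p = 0.152). Of the effector genes, Gzma fell by 2.52 and Gzmb fell by 2.33 in PAT3. The chemokine gene Ccl5 fell by 1.97 and the perforin gene Prf1 fell by 0.92 in the same comparison, and all 4 were called. B2m, the light chain of MHC class I, gave -0.32 in PAT3 (SE 0.17, limma adjusted p = 0.136).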

How the data were processed

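The authors measured ileal RNA of 24 mice on the nCounter panel, normalized the counts with DESeq2, took log2 and deposited these log2 values for 547 genes. A count of 0 is listed as 0. The labels name TRIzol with column cleanup for the RNA and the methods another kit. Counts were recovered from the deposited log2 values, since on the linear scale all values of a mouse were multiples of 1 step (100% of values above 0 counts within 0.01 of a whole count).

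Groups (7 Control, 7 PAT1, 10 PAT3) and sex came from the labels, and a legend of the study gives the PAT groups other sizes. Each gene was fitted on the deposited log2 values with limma 3.58.1 (R 4.3.3; lmFit, eBayes) in 1 fit over the 24 mice without covariates or filter, and p-values were adjusted over 547 genes (threshold 0.05). The methods' test was aov with TukeyHSD per gene, run as an alternative. Others were voom on recovered counts, log2 of the normalized count plus 1, a filter at a median of 20 counts, median re-centring, quantile normalization, sex or size factor as covariate, each sex alone, each mouse left out in turn, and, chosen after seeing the data, leaving out both shallowest mice. Correlations used 5040 orders for 7 mice and 100000 permutations for 10 (two-sided). The limma step was tested on simulated data.

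Members called by the F-test or against Control, and Klrk1, Klrc1, Klrd1, Cd244, Cd48, Hcst and Sh2d1a in any case, were given in full, and others by counts and ranges, with some named beside them. Roles were assigned from general knowledge, leaving Cd160, Klra21 and Klrb1 unclassified. From the list of related genes the 8 with the smallest adjusted p in PAT3 were named. Gzma, Gzmb, Prf1, Il15, B2m and Tyrobp were named in any case, as were the other genes called higher in PAT3. The members and lists were chosen with earlier results of these data known. The methods of the study give more than a single litter per treatment group, but the labels do not name the litter of a mouse. The p-values therefore measure the spread between these mice.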

Additional observations from a re-analysis of the deposited data

Results flagged for a closer look

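Of 78 groups examined (26 members in 3 groups), 7 held a mouse farther from the others than Dixon's test allows at the 95% level, which chance gives in about 1 group in 20. Lowest of their group were Control replicate 2 in Klra7 (2.31, 6 counts), PAT1 replicate 3 in Lilra5 (6.11, 38 counts), Control replicate 6 in H60a (1.41, 3 counts), PAT3 replicate 9 in H60a (0.89, 2 counts) and Control replicate 7 in Klrc3 (-0.0609, 1 count). Highest of their group were PAT3 replicate 7 in Cd48 (7.72, where the next mouse was at 7.01) and PAT1 replicate 1 in Klrc1 (5.63, 20 counts). The last 2 were the shallowest mice of the series. Of these members Klra7 and Cd48 were called in PAT3. Without Control replicate 2 the Klra7 change was -0.93 in place of -0.69, and without PAT3 replicate 7 the Cd48 change was -0.67 in place of -0.56.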

How the results depend on the processing

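In PAT1 the count of 1 called member became 2 with voom, the low filter, sex or the size factor as covariate and without both shallowest mice, Slamf7 being the added member, and 0 in females alone. Leaving out 1 mouse gave 1 to 2. Over all genes PAT1 had 61 called lower and 40 higher in the main fit. These became 74 and 56 with the size factor, and 69 and 65 without both shallowest mice. In PAT3 the count of 8 became 4 by the methods' test, 3 re-centred, 3 with quantile normalization, 5 with the low filter, which removes Klrb1, Klra6 and Klra7 from the test, 5 in males alone and 2 in females alone. Over all genes PAT3 had 98 called lower and 76 higher in the main fit. These became 78 and 152 re-centred, 85 and 110 with quantile normalization, and 112 and 110 with the size factor. Leaving out 1 mouse gave 5 to 9, with 5 without Control replicate 4, 5 or 6 or PAT3 replicate 2 or 8. Single mice ended the call of Klra7 (PAT3 replicate 1, 2, 5 or 8, or any Control but replicate 2), of Klrk1 (PAT3 replicate 2, 3, 4, 6 or 8, Control replicate 2, 4, 5 or 6) and of Cd48 (PAT1 replicate 4, any Control but replicate 7, PAT3 replicate 1, 2, 4, 6, 8, 9 or 10). Between PAT3 and PAT1 the count of 3 became 0 by the methods' test, 1 with quantile normalization, 0 with the size factor, 7 in males alone and 0 in females alone, and leaving out 1 mouse gave 0 to 6. Among the 3 groups the count of 5 became 3 re-centred, 3 with quantile normalization, 8 with the size factor and 1 in females alone, and leaving out 1 mouse gave 4 to 8 (8 without PAT3 replicate 7). Single-sex fits hold fewer mice, and otherwise the cause was not tested. Where no count over all genes is given, the change in the member count was not set beside the panel.

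Of 731 recomputed values for 21 results on named members, 589 kept direction and side of the threshold, 114 kept direction only and 28 turned sign, all of them of results that were not called. After re-centring and quantile normalization the turned values were 0.0495 and 0.0899 for Cd244 in PAT1, 0.0308 and 0.0364 for Cd244 in PAT3, 0.10 and 0.11 for Cd48 in PAT1, 0.19 and 0.29 for Hcst in PAT3, and 0.0541 and 0.0878 for Klrc1 in PAT3. With the size factor Cd244 in PAT1 gave 0.000691. In males alone Cd244 in PAT3 gave 0.0936, Cd48 in PAT1 0.16 and Sh2d1a in PAT1 0.27, and in females alone Hcst in PAT3 gave 0.34 and Klrc1 in PAT3 0.0477. Leaving out 1 mouse gave -0.20 to 0.11 for Cd48 in PAT1, -0.12 to 0.0547 for Hcst in PAT3 and -0.28 to 0.0507 for Sh2d1a in PAT1. No paired analysis was made, since the groups held different mice and the labels give no pairs. Depth limits the low members, whose counting error exceeds 20%, and also Klrc1, whose counting error was 22.4% at a median of 20 counts.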
